A study of Mus musculus with 20 samples.

Results

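The 45 genes described here are typical of organs other than fat, and were measured in RNA of mouse white adipose tissue. They comprise 12 genes of the pancreas acinus, 10 of the kidney, 4 of the seminal vesicle, 7 of the adrenal gland, 3 of the gut and 9 of skeletal muscle, out of 56805 genes in the count tables. They were chosen by their measured levels in these same libraries, so their levels and comparisons are a description, with no test. The question for each is how far single mice set the differences between groups. Reads were counted in 20 libraries from 4 groups of 5 mice, fed for 10 weeks. The high-fat tea mice received a high-fat diet and a water extract of Tibetan tea, the high-fat water mice received the same diet with water, the chow tea mice received chow and the extract, and the chow water mice received chow and water. The sources used here do not give the depot or the strain, sex and age of the mice. Mice carry the replicate number of their label (1 to 5), and values listed by mouse follow that order.

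Fat depots of the abdomen lie against the pancreas, kidney, adrenal gland, bowel and, in males, the seminal vesicles, and subcutaneous depots lie on muscle. Each of these organs makes a few transcripts in very large amounts. Acinar cells devote most of their mRNA to zymogens, which are inactive precursors of digestive enzymes. Tubule cells of the kidney make transporters, steroid cells make enzymes that act on cholesterol, and fast muscle fibres make contractile proteins. Whether the reads described below came from pieces of such organs, from free RNA or from cells of the fat itself was not tested. Transfer of reads or a mix-up between libraries was not tested either.

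Levels are given in CPM (reads of a gene in 1e6 reads of the library, with library sizes scaled by the TMM method of edgeR), and levels of different genes are compared only as CPM per kilobase of exon. The libraries held 53047057 to 93314761 reads in genes, so that 3 reads, the most that a count of 0 allows, came to 0.0286 to 0.0977 CPM. The 45 genes took 35.6% of all reads in chow water mouse 1, 6.84% in high-fat water mouse 4, 3.24% in high-fat tea mouse 1, 2.97% in high-fat water mouse 5 and 2.19% in high-fat tea mouse 4. They took 0.861% or less in each of the other 15 libraries, down to 0.0073%. The TMM factor was 0.587 in chow water mouse 1 and 0.913 to 1.2 in all others. A list of 14 genes of white fat cells, led by Cfd and Fabp4, took 1.38% of the reads in high-fat tea mouse 4, 3.03% in high-fat water mouse 4 and 1.23% in chow water mouse 1, against 4.43% to 7.05% in the other 17 libraries. In whole tissue, fewer cells of a type and less RNA per cell cannot be told apart.

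**Figure D1:**
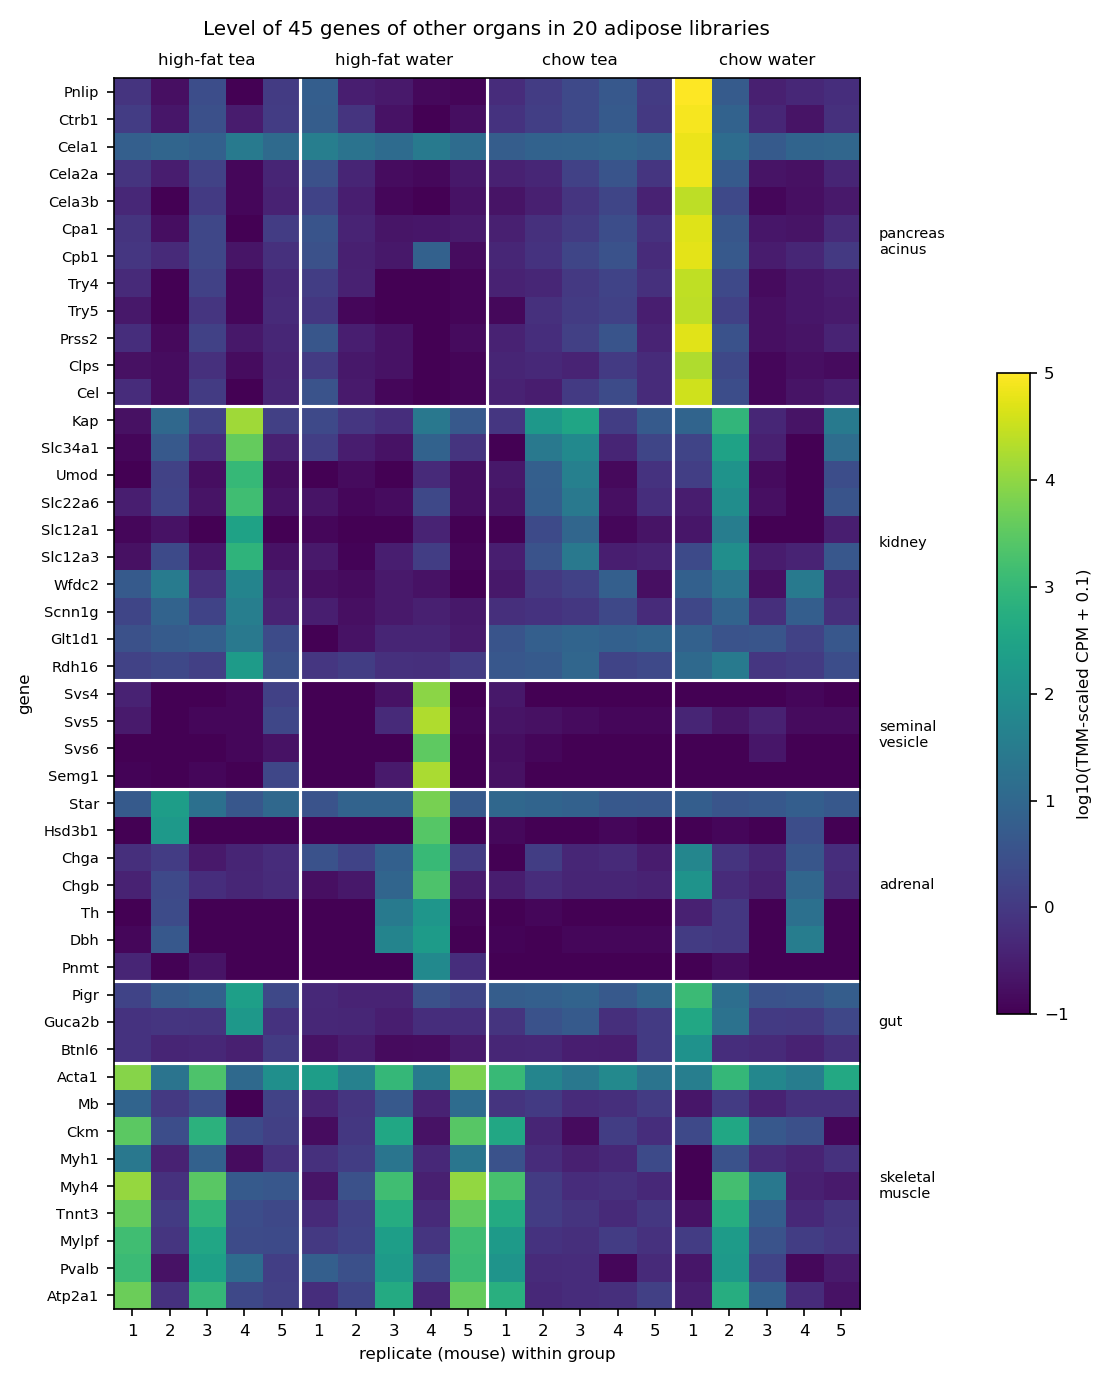
Levels of the 45 genes (down the page, by organ) in the 20 libraries (across, by group and mouse), as log10 of CPM plus 0.1. Single bright blocks stand out: pancreas genes in chow water mouse 1 (613515 CPM in sum), kidney genes in high-fat tea mouse 4 (21707 CPM) and seminal vesicle and adrenal genes in high-fat water mouse 4 (48806 and 12003 CPM), while muscle genes were high in mice of all 4 groups.

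Pancreas genes were concentrated in 1 mouse. The 12 genes, 7 of them proteases of the trypsin, chymotrypsin and elastase families, summed to 613515 CPM in chow water mouse 1 and to 6.19 to 69.2 CPM in every other library. Group means were 18.8 ± 8.37 CPM in high-fat tea mice, 31.1 ± 23.3 CPM in high-fat water mice, 19.2 ± 11.9 CPM in chow tea mice and 122719 ± 274363 CPM in chow water mice (SD, n = 5 each). The medians were 17.6, 22.0, 13.7 and 13.5 CPM in the same order, so that the mean of chow water mice alone stood apart.

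Ctrb1 (chr8:112413151-112417642, GRCm39), which encodes a chymotrypsinogen, was the highest of the 12 per kilobase. It had 1.09, 0.131, 2.87, 0.185 and 1.10 CPM in high-fat tea mice, 5.70, 0.687, 0.0918, 0 and 0.0712 CPM in high-fat water mice, 0.663, 1.18, 2.06, 4.97 and 0.887 CPM in chow tea mice and 83827, 7.60, 0.333, 0.102 and 0.577 CPM in chow water mice. Chow water mouse 1 exceeded the second highest library 11028 times, and the groups otherwise overlapped. Prss2 (chr6:41498721-41502013), a trypsinogen, had 0.517, 0.0402, 1.36, 0.139 and 0.349 CPM in high-fat tea mice, 3.97, 0.225, 0.0918, 0 and 0.0475 CPM in high-fat water mice, 0.279, 0.509, 1.30, 3.46 and 0.296 CPM in chow tea mice and 54451, 3.16, 0.0769, 0.102 and 0.301 CPM in chow water mice. Pnlip (chr19:58640930-58670220), the pancreatic lipase, had 0.684, 0.0805, 2.46, 0 and 1.01 CPM in high-fat tea mice, 5.95, 0.225, 0.153, 0.0382 and 0.0237 CPM in high-fat water mice, 0.488, 1.05, 1.98, 4.43 and 1.01 CPM in chow tea mice and 95801, 5.06, 0.231, 0.356 and 0.502 CPM in chow water mice. For all 3 genes chow water mouse 1 came first, and high-fat water mouse 1, chow tea mouse 4 and chow water mouse 2 were the next 3. The other members had 19375 CPM (Clps, the colipase that anchors the lipase) to 69715 CPM (Cela2a, an elastase) in chow water mouse 1. Between these stood the elastases Cela1 and Cela3b, the carboxypeptidases Cpa1 and Cpb1, the trypsinogens Try4 and Try5, and the bile salt lipase Cel.

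Low levels of a similar mixture were present in libraries of some other mice. With Cela1 and Cpb1 left out, the other 10 genes in chow water mouse 2 stood at 0.0053% to 0.0098% of their levels in chow water mouse 1, on 96 to 527 reads each. In high-fat water mouse 1 they stood at 0.0033% to 0.0089%, in chow tea mouse 4 at 0.0046% to 0.0067% and in high-fat tea mouse 3 at 0.0021% to 0.0050%. These mice, 1 of each group, thus held reads of the 10 genes in roughly the proportions of chow water mouse 1, at a very small part of its level. Cela1 and Cpb1 were left out after their values were seen, which favours agreement. Some other libraries, with fewer reads, kept the mixture less closely. Chow tea mouse 1 had 0.00014% to 0.0016%, on 2 to 38 reads each, and the median of high-fat water mouse 4 was 0. Whether these few reads passed from 1 library to another was not tested.

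Cela1 departed from that mixture in these mice, and Cpb1 in high-fat water mouse 4. Cela1 had 6.44, 9.13, 6.67, 30.3 and 11.5 CPM in high-fat tea mice, 36.3, 19.2, 12.6, 29.6 and 13.4 CPM in high-fat water mice, 5.77, 7.68, 8.03, 9.26 and 7.10 CPM in chow tea mice and 13.1, 4.92, 8.71 and 9.70 CPM in chow water mice 2 to 5, so it was present in every library. Cpb1 reached 7.19 CPM in high-fat water mouse 4, where Ctrb1 and Prss2 had 0 reads. The promoters of Prss2 and Cela1 are shown because both genes share acinar motifs while their levels parted outside chow water mouse 1. In these and all later lines, the sequence is the 150 bases before the start of the gene in RefSeq, with coordinates on GRCm38.p6, and capitals mark exact matches on either strand to the letters searched. Here the first are TATAAA, the letters of a TATA box. CACCTG, which is an E-box, and TTTCCC belong to the element bound by the acinar factor PTF1.
Prss2, chr6:41521626-41521775, plus strand: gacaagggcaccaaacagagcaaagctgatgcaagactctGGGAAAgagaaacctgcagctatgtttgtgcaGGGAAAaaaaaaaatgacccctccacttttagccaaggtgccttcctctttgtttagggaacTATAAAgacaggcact
Cela1, chr15:100687921-100688070, minus strand: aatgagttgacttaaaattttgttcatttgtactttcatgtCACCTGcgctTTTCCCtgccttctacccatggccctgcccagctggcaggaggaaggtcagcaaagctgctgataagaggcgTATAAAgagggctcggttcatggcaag
Searched over 250 bases, CACCTG was found in 7 and TTTCCC in 6 of the 10 pancreas genes that have a promoter in the table, against 17.2% and 21.9% of all 32851 promoters. TATAAA was found in 4 of the 10, against 12.4% of all promoters. A match describes letters and shows no binding.

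Other acinar genes behaved as the members did. Of 17 further acinar genes tested, led per kilobase by Ctrl (a chymotrypsin) and 2210010C04Rik (a trypsinogen), 15 fell in high-fat water mice against chow water mice, where 7.11% of all genes tested fell. Without chow water mouse 1, 1 of these 15 still fell, which was Zg16, a zymogen granule protein also made in the bowel. In that fit the median log2 fold change of the 12 members was -0.51, against -13.65 with all mice. Islet hormones came with the acinar genes: chow water mouse 1 had 30.9 CPM of Sst (somatostatin), 18.8 CPM of Gcg (glucagon) and 14.3 CPM of Ins2 (insulin), and no other library had more than 0.299 CPM of any of the 3.

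**Figure D2:**
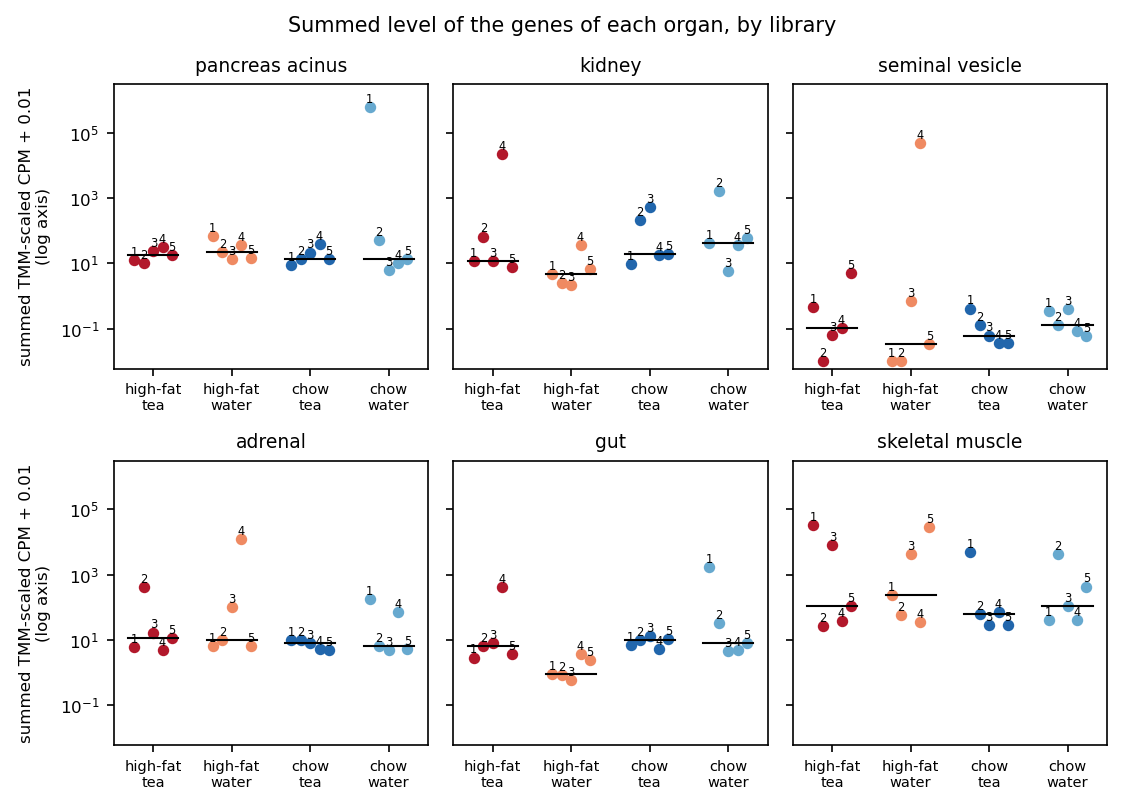
Summed CPM of the genes of each organ, plus 0.01, on a log axis (1 panel per organ). Each number is 1 mouse, groups run from high-fat tea on the left to chow water on the right, and lines mark group medians. The highest mouse lies far above its group's median in at least 1 group of every panel, as for pancreas genes (613515 CPM in chow water mouse 1 against a median of 13.5 CPM).

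Seminal vesicle genes were almost confined to high-fat water mouse 4, where the 4 genes summed to 48806 CPM, against 5.03 CPM in high-fat tea mouse 5 and 0.673 CPM or less in the other 18 libraries. They encode the main secreted proteins of the gland, which form the copulatory plug, and 4 neighbouring copies of the family lie on chromosome 2. Ddx3y and Eif2s3y, genes of the Y chromosome, were read in every library, with at least 68.1 and 38.1 CPM. Svs5 (chr2:164174660-164176316, GRCm39) had 0.168, 0, 0.0269, 0.0309 and 1.78 CPM in high-fat tea mice, 0, 0, 0.413, 18850.4 and 0.0237 CPM in high-fat water mice, 0.105, 0.0898, 0.0515, 0.027 and 0.0269 CPM in chow tea mice and 0.326, 0.115, 0.256, 0.0509 and 0.0502 CPM in chow water mice. Svs4 had 0.279, 0, 0, 0.0309 and 1.36 CPM in high-fat tea mice and 0, 0, 0.0918, 9139.9 and 0 CPM in high-fat water mice, against 0.14 CPM or less in every chow tea mouse and 0.0254 CPM or less in every chow water mouse. Semg1, the mouse semenogelin, had 0.014, 0, 0.0269, 0 and 1.79 CPM in high-fat tea mice and 0, 0, 0.168, 17488 and 0 CPM in high-fat water mice, against 0.0872 CPM or less in every chow tea mouse and 0 in every chow water mouse. Svs6 had 0, 0, 0, 0.0309 and 0.0996 CPM in high-fat tea mice and 0, 0, 0, 3328 and 0 CPM in high-fat water mice, against 0.0698 CPM or less in every chow tea mouse and 0.128 CPM or less in every chow water mouse. Outside high-fat water mouse 4, high-fat tea mouse 5 was the highest library for Svs4, Svs5 and Semg1, and chow water mouse 3 for Svs6.

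Of the 4 genes, Svs5 alone passed the filter on low counts. Its log2 fold change in high-fat water mice against chow water mice was 14.60, and -0.53 without high-fat water mouse 4. A further list of the gland, led by Svs3a and Aoc1l3, summed to 14377 CPM in high-fat water mouse 4 and to 1.23 CPM in high-fat tea mouse 5, against 0.184 CPM or less elsewhere, and none of its genes passed the filter. The promoters of Svs5 and Svs6 are shown as a pair of near copies, with TATAAA in capitals; AGAACA, a core of androgen receptor sites, was also searched.
Svs5, chr2:164332615-164332764, plus strand: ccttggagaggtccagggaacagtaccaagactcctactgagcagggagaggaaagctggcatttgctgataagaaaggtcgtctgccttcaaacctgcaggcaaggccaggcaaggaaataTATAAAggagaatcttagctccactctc
Svs6, chr2:164316601-164316750, plus strand: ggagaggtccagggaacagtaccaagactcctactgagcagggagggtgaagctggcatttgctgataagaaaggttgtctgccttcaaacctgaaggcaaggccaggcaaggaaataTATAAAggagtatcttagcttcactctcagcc
With a shift of 4 bases, 139 of 146 bases compared were identical, or 95.2%. TATAAA was found in 3 of the 3 seminal vesicle genes with a promoter in the table, and AGAACA farther upstream in Svs5 and Svs6, against 16.1% of all promoters.

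Adrenal genes of the cortex and of the medulla were all highest in high-fat water mouse 4, and their proportions differed in the other mice. The 7 genes summed to 12003 CPM in that mouse, to 407 CPM in high-fat tea mouse 2, to 182 CPM in chow water mouse 1, to 103 CPM in high-fat water mouse 3 and to 73.1 CPM in chow water mouse 4. The other 15 libraries had 4.75 to 16.7 CPM. The group means were 89.1 ± 178 CPM in high-fat tea mice, 2426 ± 5354 CPM in high-fat water mice, 7.57 ± 2.59 CPM in chow tea mice and 54.5 ± 77.3 CPM in chow water mice (SD, n = 5 each).

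In the cortex, Star carries cholesterol into mitochondria and Hsd3b1 is a steroid dehydrogenase. Star (chr8:26296583-26306010, GRCm39) had 4.97, 216, 16.0, 4.20 and 10.4 CPM in high-fat tea mice, 3.27, 8.17, 7.99, 5753 and 4.91 CPM in high-fat water mice, 9.82, 8.44, 7.24, 4.28 and 4.26 CPM in chow tea mice and 6.09, 3.65, 4.43, 6.04 and 4.34 CPM in chow water mice. It was detected in every library, with 3.27 CPM at the least, and exceeded 16.0 CPM only in high-fat tea mouse 2 and high-fat water mouse 4. Hsd3b1 had 181 CPM in high-fat tea mouse 2, 2579 CPM in high-fat water mouse 4 and 2.52 CPM in chow water mouse 4, with 0 reads in 14 libraries and at most 0.0349 CPM in the other 3. In high-fat tea mouse 2 the steroid hydroxylases Cyp21a1 and Cyp11b1 had 87.1 and 71.6 CPM, against 1581 and 1538 CPM in high-fat water mouse 4. Genes of the medulla were lower in high-fat tea mouse 2, with 4.45 CPM of Dbh, 2.22 CPM of Th, 2.03 CPM of Chgb and 1.09 CPM of Chga, and each of these was the highest of the 5 high-fat tea mice.

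In the medulla, Chga and Chgb encode granins of hormone granules, and Th, Dbh and Pnmt encode successive enzymes of catecholamine synthesis, Pnmt being the last one, which makes adrenaline. Chgb had 0.279, 2.03, 0.51, 0.34 and 0.448 CPM in high-fat tea mice, 0.0734, 0.15, 9.01, 2145 and 0.19 CPM in high-fat water mice, 0.209, 0.464, 0.309, 0.324 and 0.269 CPM in chow tea mice and 119, 0.462, 0.231, 9.59 and 0.427 CPM in chow water mice. High-fat water mouse 4 was highest by 18.1 times, and chow water mouse 1, the mouse with islet hormones, was second. In chow water mouse 1, Th and Dbh had 0.261 and 0.977 CPM beside 119 CPM of Chgb. High-fat water mouse 3 had the reverse, with 27.3 CPM of Th and 51.6 CPM of Dbh beside 9.01 CPM of Chgb, and chow water mouse 4 had 16.4, 34.7 and 9.59 CPM of the same genes. Pnmt was at 0 in both of these mice and at 70.2 CPM in high-fat water mouse 4. Th and Dbh are also made by sympathetic neurons, which lack Pnmt. The part of such neurons in these levels was not tested. The promoters of Chgb and Th are shown for TGACGTCA (capitals), the full cAMP response element, which is in 1.55% of all promoters. They alone held it among the 5 adrenal genes with a promoter in the table.
Chgb, chr2:132781492-132781641, plus strand: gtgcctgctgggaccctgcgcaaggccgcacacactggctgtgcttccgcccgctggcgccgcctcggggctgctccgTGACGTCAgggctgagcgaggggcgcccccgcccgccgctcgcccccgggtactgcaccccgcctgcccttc
Th, chr7:142899996-142900145, minus strand: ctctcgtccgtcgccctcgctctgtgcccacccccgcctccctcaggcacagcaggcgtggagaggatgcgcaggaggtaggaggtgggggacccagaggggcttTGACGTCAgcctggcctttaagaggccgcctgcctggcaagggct
CAAGGTCA, the site of the steroid cell factor NR5A1, and TATAAA were found in 0 of the 5 adrenal genes with a promoter in the table. The first is in 1.33% of all promoters. That only says that these letters are not in these windows.

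Of 8 further cortex genes tested, 2 rose in high-fat water mice against chow water mice, Cyp11a1 and Fdxr, which start steroid synthesis from cholesterol in mitochondria, where 8.06% of all genes tested rose. Without high-fat water mouse 4 neither was called, and without chow water mouse 2, 3 or 4 neither was called as well. The median log2 fold change of the 5 adrenal members tested was 4.06 with all mice and 0.30 without high-fat water mouse 4.

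Kidney genes were highest in high-fat tea mouse 4 and were present at graded levels in 3 chow-fed mice. The 10 genes summed to 21707 CPM in high-fat tea mouse 4, to 536 CPM in chow tea mouse 3, to 218 CPM in chow tea mouse 2 and to 1597 CPM in chow water mouse 2, against 2.10 to 66.2 CPM in the other 16 libraries. Kap (chr6:133826814-133830725, GRCm39), an androgen-regulated protein of the proximal tubule, had 0.0838, 10.6, 1.37, 14005 and 1.27 CPM in high-fat tea mice, 2.00, 0.775, 0.52, 25.1 and 4.60 CPM in high-fat water mice, 0.767, 160.4, 342, 1.15 and 4.77 CPM in chow tea mice and 8.60, 910.4, 0.333, 0.102 and 29.4 CPM in chow water mice. High-fat tea mouse 4 was 15.4 times above the second library, and of the other high-fat tea mice, mice 2, 3 and 5 lay within the range of both chow groups while mouse 1 lay below both. Slc34a1, the sodium phosphate cotransporter of the proximal tubule, had 0.0279, 4.61, 0.47, 3767 and 0.249 CPM in high-fat tea mice, 1.18, 0.2, 0.0918, 7.42 and 0.688 CPM in high-fat water mice, 0, 26.5, 70.9, 0.324 and 1.69 CPM in chow tea mice and 1.56, 289.7, 0.231, 0 and 13.9 CPM in chow water mice. Umod, the uromodulin of the thick ascending limb, had 0, 1.40, 0.0671, 1072 and 0.0623 CPM in high-fat tea mice, 0, 0.05, 0, 0.429 and 0.0712 CPM in high-fat water mice, 0.14, 6.53, 39.9, 0.0405 and 0.645 CPM in chow tea mice and 1.17, 124, 0.0513, 0 and 2.47 CPM in chow water mice. For all 3 genes the same 4 mice were highest, in the order high-fat tea 4, chow water 2, chow tea 3 and chow tea 2.

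Genes of several nephron segments kept a broadly similar mixture, least closely in chow tea mouse 2. Wfdc2, Scnn1g and Glt1d1 were set aside after their values were seen, which favours agreement among the rest. With Wfdc2, Scnn1g and Glt1d1 left out, the other 7 genes in chow water mouse 2 stood at 5.82% to 14.0% of their levels in high-fat tea mouse 4. They stood at 1.82% to 4.85% in chow tea mouse 3 and at 0.404% to 2.49% in chow tea mouse 2. The 7 include Slc22a6, the organic anion transporter of the proximal tubule, Slc12a1, the sodium potassium chloride cotransporter of the thick limb, Slc12a3, the sodium chloride cotransporter of the distal tubule, and Rdh16, a retinol dehydrogenase. Slc34a1 is printed because it held GTTAAT, a core of sites of the tubule factor HNF1, 2 times (capitals).
Slc34a1, chr13:55399498-55399647, plus strand: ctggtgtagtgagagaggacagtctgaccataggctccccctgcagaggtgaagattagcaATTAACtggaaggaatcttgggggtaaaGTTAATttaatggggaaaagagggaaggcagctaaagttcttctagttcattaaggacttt
GTTAAT was found in 3 of the 9 kidney genes with a promoter in the table, namely Slc22a6, Slc34a1 and Umod, against 6.43% of all promoters. TATAAA was found in Kap, Rdh16 and Slc12a3.

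**Figure D3:**
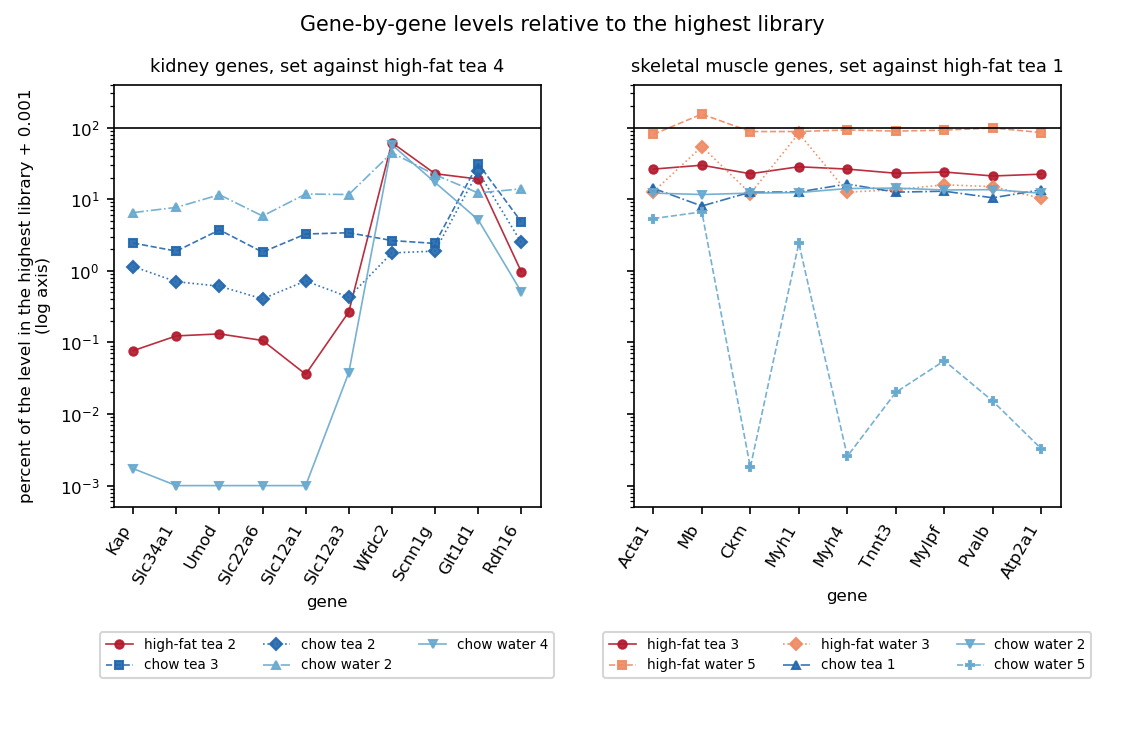
Each gene's CPM in selected mice as a percentage of its CPM in the top mouse (log axis), for the kidney genes against high-fat tea mouse 4 and for the muscle genes against high-fat tea mouse 1. Flat lines mean that genes kept one ratio to each other; Wfdc2 and Scnn1g rise above the line of the other kidney genes in chow water mouse 2, Glt1d1 does so in chow tea mice 2 and 3, and Acta1 and Mb rise above the other muscle genes in chow water mouse 5.

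Wfdc2, Scnn1g and Glt1d1 were also highest in high-fat tea mouse 4, but other mice stood closer to it than for the rest of the kidney group. Wfdc2, a secreted protein of many epithelia, had 4.96, 30.6, 0.591, 49.7 and 0.224 CPM in high-fat tea mice, 0.0734, 0.05, 0.153, 0.0954 and 0 CPM in high-fat water mice, 0.14, 0.883, 1.31, 6.45 and 0.0807 CPM in chow tea mice and 6.71, 22.1, 0.0769, 28.6 and 0.351 CPM in chow water mice. Scnn1g, a subunit of the epithelial sodium channel, had 1.66, 8.13, 1.54, 35.8 and 0.299 CPM in high-fat tea mice, 0.22, 0.075, 0.153, 0.229 and 0.142 CPM in high-fat water mice, 0.558, 0.674, 0.863, 1.85 and 0.457 CPM in chow tea mice and 1.82, 7.86, 0.538, 6.14 and 0.552 CPM in chow water mice. High-fat tea mouse 2 and chow water mouse 4 were high in both, although Kap had 10.6 and 0.102 CPM there. A list of urothelium genes, made after values of these data were seen, was highest in the same mice: its sum was 803 CPM in high-fat tea mouse 2, 666 CPM in chow water mouse 4, 485 CPM in chow water mouse 1, 407 CPM in chow water mouse 2 and 304 CPM in high-fat tea mouse 4. The uroplakin Upk3a had 71.5 CPM in high-fat tea mouse 2 and 60.7 CPM in chow water mouse 4, and 0.171 CPM or less in every high-fat water mouse. Ly6d, the highest of that list per kilobase, had 157 CPM in high-fat water mouse 4, against 100 CPM in high-fat tea mouse 2. Krt19, the next, had 10.3 CPM in high-fat water mouse 4 and 104 CPM in high-fat tea mouse 2. The list summed to 179 CPM in high-fat water mouse 4, where Wfdc2 had 0.0954 CPM. Of 8 genes of that list tested, 5 fell in high-fat water mice against chow water mice, where 7.11% of all genes tested fell, and 1 of them, the keratin Krt19, still fell without high-fat water mouse 1. The part of such cells in Wfdc2 and Scnn1g was not tested.

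Glt1d1, a gene with a glycosyltransferase domain, differed between groups without any one mouse setting it. It had 2.90, 5.16, 6.55, 27.0 and 2.28 CPM in high-fat tea mice, 0, 0.1, 0.321, 0.324 and 0.178 CPM in high-fat water mice, 3.59, 6.59, 8.48, 6.66 and 8.68 CPM in chow tea mice and 7.17, 3.30, 3.68, 1.40 and 4.21 CPM in chow water mice. All 5 high-fat water mice lay below all 15 others, and the lowest of those others, chow water mouse 4, had 1.40 CPM. In fits without 1 mouse, its log2 fold change in high-fat water mice against chow water mice ran -4.71 to -4.08, around -4.40 with all mice, and that of high-fat tea mice against high-fat water mice ran 4.50 to 5.91, around 5.56. These 2 comparisons share the high-fat water mice. A kidney gene by label, Glt1d1 thus did not share the pattern of Kap, Slc34a1 and Umod in these libraries.

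Of 18 further proximal tubule genes tested, 3 fell in high-fat water mice against chow water mice (Cyp2e1, Gsta2 and Cyp4a10), where 7.11% of all genes tested fell. In the same list 3 rose in high-fat tea mice against high-fat water mice (Slc22a12, Cyp2e1 and Cyp4a10), where 2.06% of all genes tested rose. Cyp2e1, an ethanol-oxidising cytochrome P450 also made in fat and liver, was the highest per kilobase, with 4646, 4104, 10032, 2912 and 2566 CPM in high-fat tea mice, 775, 1566, 1704, 842 and 1972 CPM in high-fat water mice, 10809.8, 8393, 8185, 8779.7 and 9729 CPM in chow tea mice and 2411, 6587, 9331, 6811 and 7292 CPM in chow water mice. It was high in mice with almost no Kap, unlike Acsm2, an acyl-CoA synthetase and the next highest. Cyp2e1 alone still fell without chow water mouse 2 or without any 1 of the 5 high-fat water mice. Without high-fat tea mouse 4, it alone still rose in high-fat tea mice against high-fat water mice. The calls in the tea comparison were all lost without high-fat water mouse 1, 2 or 4 or high-fat tea mouse 3. Of 15 further genes of the later tubule tested, led by Fxyd2 and Ppp1r1a, 2 fell in high-fat water mice against chow water mice (Aqp3 and Ppp1r1a), where 7.11% of all genes tested fell, and none still fell without chow water mouse 4, high-fat water mouse 1 or high-fat water mouse 4. The median log2 fold change of the 10 kidney members in high-fat tea mice against high-fat water mice was 8.67 with all mice and 1.09 without high-fat tea mouse 4. In high-fat water mice against chow water mice it was -5.16, and -2.32 without chow water mouse 2.

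**Figure D4:**
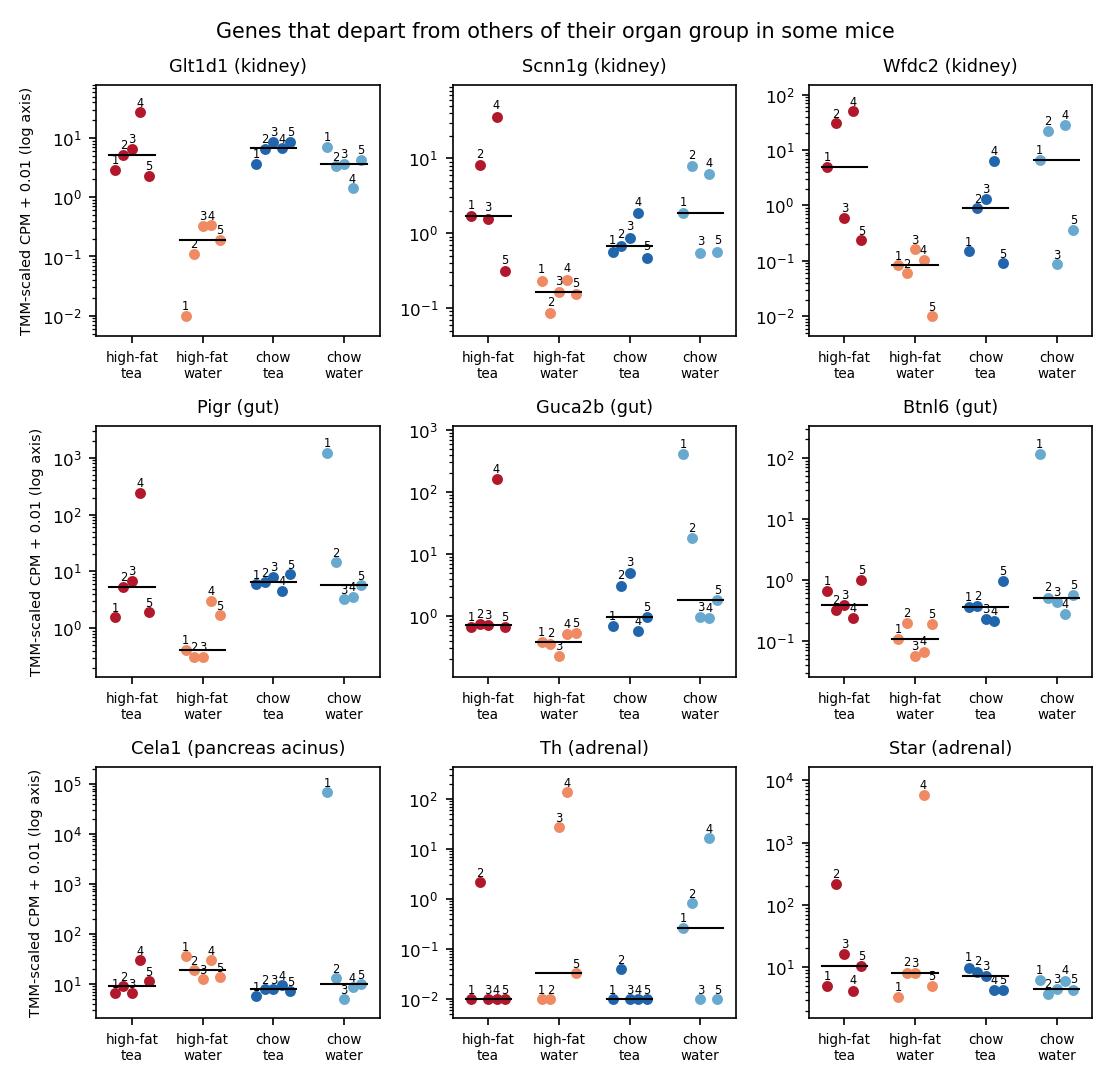
CPM of 9 genes that departed from others of their organ group in some mice, in each of the 20 mice (log axis, groups from high-fat tea on the left to chow water on the right, 1 number per mouse, lines at the medians). All 5 high-fat water mice had less Glt1d1 (at most 0.324 CPM) than any other mouse, and Cela1 and Star were present in every library.

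Gut genes were highest in chow water mouse 1, and were low in all 5 high-fat water mice. The 3 genes summed to 407 CPM in high-fat tea mouse 4 and 2.86 to 7.84 CPM in the other high-fat tea mice, to 0.566 to 3.56 CPM in high-fat water mice, to 5.35 to 13.4 CPM in chow tea mice, and to 1750 CPM in chow water mouse 1 and 4.57 to 32.9 CPM in the other chow water mice. Pigr (chr1:130754421-130779986, GRCm39), the receptor that carries IgA across the epithelium, had 1.55, 5.30, 6.77, 245 and 1.91 CPM in high-fat tea mice, 0.404, 0.3, 0.306, 3.0 and 1.68 CPM in high-fat water mice, 5.90, 6.45, 8.12, 4.59 and 8.83 CPM in chow tea mice and 1229, 14.5, 3.20, 3.57 and 5.70 CPM in chow water mice. Guca2b, the peptide uroguanylin, had 0.656, 0.734, 0.698, 162 and 0.66 CPM in high-fat tea mice, 0.367, 0.35, 0.214, 0.506 and 0.522 CPM in high-fat water mice, 0.68, 3.08, 5.02, 0.554 and 0.955 CPM in chow tea mice and 406, 17.9, 0.948, 0.903 and 1.81 CPM in chow water mice. Btnl6, a butyrophilin-like protein of the intestinal epithelium, had 0.656, 0.312, 0.376, 0.232 and 0.996 CPM in high-fat tea mice, 0.0979, 0.187, 0.0459, 0.0573 and 0.178 CPM in high-fat water mice, 0.349, 0.359, 0.219, 0.203 and 0.955 CPM in chow tea mice and 115, 0.505, 0.423, 0.267 and 0.552 CPM in chow water mice. For all 3 the high-fat water mice lay below the chow water mice without overlap, as did 5.59% of all genes tested. The gap was narrow for Pigr, with 3.0 CPM in high-fat water mouse 4 and 3.20 CPM in chow water mouse 3.

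High-fat tea mouse 4 had much Pigr and Guca2b and little Btnl6, and the same mouse had the most kidney reads. Guca2b and Pigr are also made in kidney tubules, and the part of kidney in their level was not tested. Of 19 further gut genes tested, led per kilobase by Apoa1 and Defa24, 18 fell in high-fat water mice against chow water mice, where 7.11% of all genes tested fell. Without chow water mouse 1, 8 of these still fell: the mucin Muc2, Cdh17, Krt20, Lgals4, the trefoil factor Tff3, Fcgbp, the carbonic anhydrase Car1 and the butyrophilin-like gene Btnl4. The sum of the list was 15388 CPM in chow water mouse 1 and 609 CPM in high-fat tea mouse 4, against 56.0 to 166 CPM in the other 18 libraries. The median log2 fold change of the 3 members in this comparison was -7.75, and -2.60 without chow water mouse 1. TTTATG, a site of the intestinal factor CDX, and TATAAA were found in 0 of their 3 promoters, and TTTATG is in 10.8% of all promoters.

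Skeletal muscle genes were high in 6 mice, spread over the 4 groups. The 9 genes summed to 33214 CPM in high-fat tea mouse 1, 8235 CPM in high-fat tea mouse 3, 29309 CPM in high-fat water mouse 5, 4200.0 CPM in high-fat water mouse 3, 4742 CPM in chow tea mouse 1 and 4373 CPM in chow water mouse 2, against 26.6 to 429 CPM in the other 14 libraries. Group means were 8325 ± 14357 CPM in high-fat tea mice, 6766 ± 12726 CPM in high-fat water mice, 986 ± 2099.6 CPM in chow tea mice and 998 ± 1894 CPM in chow water mice (SD, n = 5 each), so in each group the SD exceeded the mean.

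Acta1 (chr8:124618508-124621490, GRCm39), the actin of skeletal muscle, had 7945, 19.7, 2092, 11.2 and 96.0 CPM in high-fat tea mice, 220.3, 43.8, 1006, 30.0 and 6402 CPM in high-fat water mice, 1128, 54.7, 24.6, 68.0 and 20.8 CPM in chow tea mice and 36.2, 966, 58.2, 35.1 and 426 CPM in chow water mice. Tnnt3, the troponin T of fast fibres, had 3749.7, 0.976, 864, 2.49 and 1.92 CPM in high-fat tea mice, 0.428, 1.35, 508, 0.42 and 3352 CPM in high-fat water mice, 470.4, 1.06, 0.708, 0.432 and 0.86 CPM in chow tea mice and 0.0977, 536, 6.25, 0.381 and 0.716 CPM in chow water mice. Myh4, the myosin heavy chain of the fastest fibres, had 11223, 0.624, 2956, 4.91 and 4.07 CPM in high-fat tea mice, 0.122, 2.95, 1409.6, 0.239 and 10407 CPM in high-fat water mice, 1827, 1.00, 0.463, 0.567 and 0.403 CPM in chow tea mice and 0, 1583, 24.5, 0.229 and 0.176 CPM in chow water mice. Every group thus held at least 1 mouse with more than 1500 CPM of Myh4 and at least 3 mice with less than 25 CPM. Myh4 is printed for its TATAAA and CAGCTG, an E-box of muscle promoters (capitals).
Myh4, chr11:67237662-67237811, plus strand: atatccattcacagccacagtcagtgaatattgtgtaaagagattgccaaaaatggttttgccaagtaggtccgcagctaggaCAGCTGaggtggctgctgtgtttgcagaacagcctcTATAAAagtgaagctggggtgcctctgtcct
CAGCTG was found in 6 of the 8 muscle genes with a promoter in the table, against 13.0% of all promoters, TATAAA in 3, and the MEF2 consensus in 0, against 3.20% of all promoters.

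Fast fibre genes kept similar proportions in the 6 mice. Leaving out Acta1, Mb and Myh1, the other 6 genes stood at 85.3% to 98.9% of high-fat tea mouse 1 in high-fat water mouse 5, at 21.1% to 26.3% in high-fat tea mouse 3, at 10.3% to 15.9% in high-fat water mouse 3, at 10.5% to 16.3% in chow tea mouse 1 and at 12.1% to 14.3% in chow water mouse 2. The 6 are Myh4, Tnnt3, the creatine kinase Ckm, the fast regulatory light chain Mylpf, the calcium buffer Pvalb and the calcium pump Atp2a1. Myh1, the myosin of intermediate fast fibres, departed from this in 1 mouse: it had 21.1 CPM in high-fat water mouse 3, or 83.2% of high-fat tea mouse 1, and 25.4 and 22.4 CPM in high-fat tea mouse 1 and high-fat water mouse 5. Mb, the oxygen store myoglobin, was low everywhere, with 13.4 CPM at the most, in high-fat water mouse 5.

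Acta1 also rose without the rest. It had 426 CPM in chow water mouse 5 and 220.3 CPM in high-fat water mouse 1, where Ckm had 0.0251 and 0.0612 CPM. Pvalb had 12.9 CPM in high-fat tea mouse 4 and 6.60 CPM in high-fat water mouse 1, where Myh4 had 4.91 and 0.122 CPM. Distal tubule cells of the kidney also make Pvalb, and high-fat tea mouse 4 was the mouse with the most kidney reads, but the part of kidney was not tested. Of 28 further muscle genes tested, led by Tnni2 and Myl1, 2 rose in high-fat water mice against chow water mice, the myosin Myh2 and the myosin-binding protein Mybpc1, a share below the 8.06% of all genes tested that rose. Both calls were lost when any 1 of the 5 chow water mice or high-fat water mouse 5 was left out. The median log2 fold change of the 9 members in high-fat water mice against chow water mice was 2.96, with 0.27 without high-fat water mouse 5 and 8.08 without chow water mouse 2. In high-fat tea mice against high-fat water mice it was 0.26, with -1.81 without high-fat tea mouse 1 and 2.64 without high-fat water mouse 5.

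Across organs, the high mice did not follow the groups. The library with the highest sum was a chow water mouse for pancreas and gut genes (mouse 1 in both), a high-fat water mouse for seminal vesicle and adrenal genes (mouse 4 in both) and a high-fat tea mouse for kidney genes (mouse 4) and muscle genes (mouse 1). One library held more than 80% of the CPM summed over 20 libraries for 23 of the 40 members tested, and for 1.49% of all genes tested. The 317 genes of that kind belonged to 3 mice, with 134 highest in high-fat tea mouse 4, 27 in high-fat water mouse 4 and 156 in chow water mouse 1. Outside the 45 genes, the highest per kilobase in high-fat tea mouse 4 were Acy3, Acsm2, Cltrn, S100g and Fbp1. In high-fat water mouse 4 they were Srd5a2, Scg2, Cyp11a1, Mgarp and Akr1cl, and in chow water mouse 1 they were Ctrl, 2210010C04Rik, Rnase1, Pnliprp1 and Sycn. A list of liver genes was also highest in high-fat tea mouse 4, with 3641 CPM in sum, led by Ass1, which the kidney makes too, and Alb with 998 CPM.

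Counts of members past an adjusted p of 0.05 in edgeR's quasi-likelihood test followed from these levels and are given as a description, with the share of all 21306 genes tested beside them. In high-fat water mice against chow water mice, 2 of the 40 members tested were higher (Svs5 and Star), against 8.06% of all genes. In the other direction 18 were lower, against 7.11% of all genes: the 12 pancreas genes, Wfdc2, Scnn1g, Glt1d1 and the 3 gut genes. Without chow water mouse 1, 7 members were called in place of 20. Wfdc2, Scnn1g, Glt1d1 and Btnl6 were called in each of the 10 fits that left out 1 mouse of either group, and no other member was.

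In high-fat tea mice against high-fat water mice, 4 members were higher (Wfdc2, Scnn1g, Glt1d1 and Rdh16), against 2.06% of all genes, and 2 were lower (Svs5 and Chga), against 2.3% of all genes. The total of 6 became 2 without high-fat water mouse 1, high-fat water mouse 4 or high-fat tea mouse 2, and 3 without high-fat water mouse 2, high-fat tea mouse 3 or high-fat tea mouse 4. Scnn1g and Glt1d1 were the members called in all 10 fits. In chow tea mice against chow water mice, edgeR called 0 of 40 members, against 0.0188% of all genes higher and 0.00469% lower. There 19 members had an unadjusted p under 0.05, and DESeq2 and limma voom called 0. In high-fat tea mice against chow tea mice, edgeR called 0 of 40, against 0.0375% of all genes higher and 0.141% lower, with 4 members at an unadjusted p under 0.05, 1 call by DESeq2 and 0 by limma voom.

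Members whose 2 groups did not overlap were counted as well, although 1 mouse can still make most of the size of such a difference. In high-fat water mice against chow water mice, 0 members were higher in every mouse, against 7.34% of all genes, and 5 were lower in every mouse, against 5.59% of all genes: Scnn1g, Glt1d1, Pigr, Guca2b and Btnl6. In high-fat tea mice against high-fat water mice, 6 were higher in every mouse, against 2.37% of all genes: Wfdc2, Scnn1g, Glt1d1, Rdh16, Guca2b and Btnl6. None was lower in every mouse, against 3.18% of all genes. High-fat tea mouse 4 held 96.3% of the summed CPM of its group for Rdh16 and 98.3% for Guca2b, and chow water mouse 1 held 95.0% to 98.5% for the 3 gut genes. The pairs of comparisons share the high-fat water mice, so these lists are not separate evidence.

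**Figure D5:**
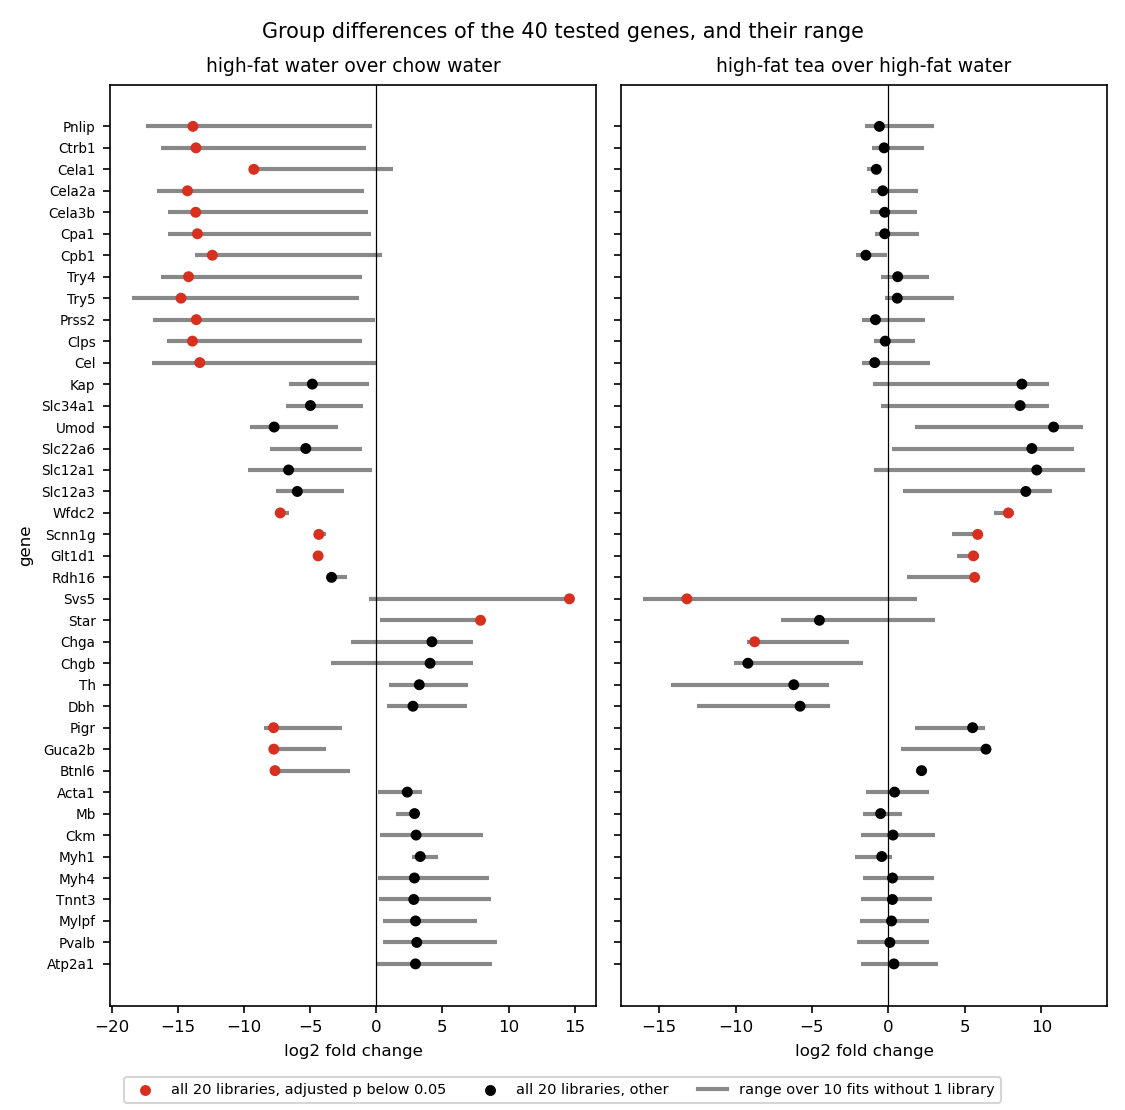
Log2 fold changes of the 40 members tested (points; red where the adjusted p was under 0.05), in high-fat water mice against chow water mice and in high-fat tea mice against high-fat water mice. Grey bars span the 10 fits that each left out 1 mouse of the groups compared; the bars of pancreas genes reach near 0 in the first comparison, and that of Glt1d1 spans only -4.71 to -4.08.

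The size of the differences depended on single mice to a like degree. The median log2 fold change of the 40 members was -5.16 in high-fat water mice against chow water mice, where that of all genes was -0.0025. It was 0.23 in high-fat tea mice against high-fat water mice (all genes 0.019), -2.32 in chow tea mice against chow water mice (all genes -0.034) and 2.91 in high-fat tea mice against chow tea mice (all genes 0.065). When 1 mouse of the groups compared was left out, the fold change changed sign in at least 1 of the 10 fits for 5, 24, 21 and 16 of the 40 members in the same order of comparisons. Leaving out the 5 mice in which an organ sum exceeded 10000 CPM (high-fat tea 1 and 4, high-fat water 4 and 5, and chow water 1) left 5 members called in high-fat water mice against chow water mice and 3 in high-fat tea mice against high-fat water mice.

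Some values are less certain because genes share sequence or position. Of 44 members matched to transcripts, 7 shared over 10% of their 50-base words with other genes, led by Try4 with 65.6% and Try5 with 53.9%, so that their reads could be exchanged between the trypsinogens. Exons of 8 members overlapped those of another gene, which lay on the other strand for 7 of the 8. Counting used no strand, so reads of such pairs cannot be told apart. The overlap was 31.9% of the exonic bases of Mb, 21.9% of Atp2a1 and 21.4% of Ckm.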

How the data were processed

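Poly-A RNA of white adipose tissue was measured in 20 libraries (TRIzol extraction and a stranded Illumina kit, per the labels' protocols). The deposited files hold raw read counts for each gene, which the authors made with fastp 0.23.2, HISAT2 2.2.1 and featureCounts 2.0.6, per the submitters' processing notes. Per the file headers, reads of pairs were counted singly at exons, without strand, on GENCODE vM32 (GRCm39), whereas the notes name mm10. Depth was 53047057 to 93314761 reads per library. Groups came from the sample titles. From the counts, filterByExpr kept 21306 genes and removed 35499 (minimum 10 reads, total 15). Library sizes were scaled by TMM, and edgeR 4.0.16 (R 4.3.3) fitted 4 group means with the quasi-likelihood F test and Benjamini-Hochberg adjustment (common coefficient of biological variation 0.593). Adjusted p-values rest on the spread of mice within groups, shared over all 4 groups in a single fit of the 20 libraries. Counts bound counting error only. The fit was tested on simulated data with fold changes set for a whole group. No simulated library was given a block of high genes, so that test does not cover such libraries. Alternatives were RLE factors, members left out of scaling, DESeq2 1.42.0, limma 3.58.1 voom, no filter, only the groups compared, a replicate block and left-out libraries. Every library's value is given for the 3 members per organ that were highest per kilobase (all 4 of the seminal vesicle) and for members that departed from their organ, which were picked after their values were seen. Genes left out of the proportions within an organ were also set aside after their values were seen. The members and lists were chosen with earlier results of these data known. Promoters came from RefSeq (GRCm38.p6), with 38 of 45 members matched by symbol; motifs were searched in 250 bases. No 2 libraries of a group agreed within sampling noise (40 pairs, lowest chi-square per gene 62.9).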

Additional observations from a re-analysis of the deposited data

Results flagged for a closer look

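Within each group of 5 mice, the distance of the highest or lowest mouse to its nearest neighbour was divided by the range of the group, on log2(CPM + 0.5), and ratios above 0.71 (Dixon's limit) are listed. Of 204 combinations of a group and a gene or organ sum, 192 had at least 10 reads in the highest library, and 70 exceeded the limit, each through its highest mouse. Chance gives about 1 in 20, but the genes were chosen for their levels in these libraries, and genes of an organ share their mice, so the count is a description and is not read against that rate.

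High-fat tea mouse 4 stood apart for the kidney sum (0.732), Slc34a1 (0.744), Umod (0.826), Slc22a6 (0.843), Slc12a1 (0.971), Slc12a3 (0.792), Rdh16 (0.859), the gut sum (0.811), Pigr (0.736) and Guca2b (0.987). High-fat tea mouse 2 stood apart for the adrenal sum (0.73), Hsd3b1 (1), Chgb (0.78), Th (1) and Dbh (0.976). High-fat tea mouse 5 stood apart for the seminal vesicle sum (0.728), Svs5 (0.81) and Semg1 (0.966), at 1.78 and 1.79 CPM of those genes.

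Among high-fat water mice, mouse 4 stood apart for the seminal vesicle sum (0.926), Svs4 (0.983), Svs5 (0.943), Svs6 (1), Semg1 (0.972), Star (0.886), Hsd3b1 (1), Chga (0.758) and Pnmt (0.858), and also for the kidney genes Umod (0.785), Slc22a6 (0.9), Slc12a1 (0.894) and Slc12a3 (0.711), at 0.286 to 1.87 CPM. Mouse 1 stood apart for Pnlip (0.871), Cela2a (0.769), Cela3b (0.737), Cpa1 (0.867), Try5 (0.95), Prss2 (0.83), Clps (0.76) and Cel (0.851), at 0.832 to 5.95 CPM.

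Among chow tea mice, mouse 1 stood apart for the muscle sum (0.816), Ckm (0.837), Myh4 (0.933), Tnnt3 (0.917), Mylpf (0.919), Pvalb (0.888) and Atp2a1 (0.894), mouse 4 for Clps (0.723) and mouse 5 for Btnl6 (0.723). Chow water mouse 1 stood apart for the pancreas sum (0.819), Pnlip (0.828), Ctrb1 (0.78), Cela1 (0.902), Cela2a (0.812), Cela3b (0.854), Cpa1 (0.825), Cpb1 (0.823), Try4 (0.858), Try5 (0.889), Prss2 (0.839), Clps (0.855), Cel (0.843), Pigr (0.759) and Btnl6 (0.937). Chow water mouse 2 did for Slc12a1 (0.912), Mylpf (0.781) and Pvalb (0.76), mouse 3 for Svs6 (1), and mouse 4 for Hsd3b1 (0.969), Th (0.721) and Dbh (0.745). The causes were not tested.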

How the results depend on the processing

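Scaling by RLE factors, and scaling without the 45 genes, moved no count of calls by more than 1.5 times. In high-fat water mice against chow water mice, 20 members were called, against 4 with DESeq2, 1 with limma voom, 7 with only the 2 groups in the fit, 3 with a replicate block, 5 without libraries with an organ sum over 10000 CPM (5 libraries out) and 3 without those over 1000 CPM (9 out). The members' median log2 fold change of -5.16 was 0.13 and -0.89 without those libraries, and 3232 called genes became 2137 without the 9. The following values turned sign without the 5 libraries: Pnlip 0.46, Ctrb1 0.0089, Cela1 1.32, Cela3b 0.098, Cpa1 0.24, Prss2 0.66 and Cel 0.71. Without the 9 they were Pnlip 3.06, Ctrb1 3.21, Cela1 1.81, Cela2a 3.20, Cela3b 3.35, Cpa1 3.12, Cpb1 1.71, Try4 2.44, Try5 1.72, Prss2 3.67, Clps 3.43, Cel 3.93 and Svs5 -6.28. With 1 mouse left out in turn, Cela1 ran -9.59 to 1.25 and Cpb1 -13.72 to 0.44, positive only without chow water mouse 1, and Svs5 ran -0.53 to 14.93, negative only without high-fat water mouse 4. In high-fat tea mice against high-fat water mice, Svs5 ran -16.04 to 1.89, positive only without high-fat water mouse 4, and turned to 2.15 without the 5 and to 9.13 without the 9 libraries.

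In that tea comparison, 6 members were called, against 3 with DESeq2, 1 with limma voom, 3 without a filter, 0 with only the 2 groups, 3 with a replicate block, 3 without the 5 and 0 without the 9 libraries. All genes called there numbered 928, against 2444 with DESeq2, 408 without a filter, 19 with only the 2 groups and 13 without the 9 libraries. In chow tea mice against chow water mice, 5 genes were called, against 259 with DESeq2, 2 without a filter, 0 with only the 2 groups, 2 with a replicate block and 0 without the 9 libraries, and the members' median became 0.87 without the 9. In high-fat tea mice against chow tea mice, 38 genes were called, against 933 with DESeq2, 73 with limma voom, 19 without a filter, 5 with only the 2 groups and 5 without the 9 libraries. DESeq2 called 1 member there, and the members' median of 2.91 became 0.27 with limma voom, 0.27 with a replicate block, -0.16 without the 5 and -0.93 without the 9 libraries. The causes were not tested. The fits that left libraries out also had fewer mice, and the part of that was not tested.

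With 1 mouse left out in turn, genes called ran 1901 to 3426 in high-fat water mice against chow water mice, 214 to 2036 in high-fat tea mice against high-fat water mice, 2 to 6 in chow tea mice against chow water mice and 11 to 414 in high-fat tea mice against chow tea mice. Members called ran 7 to 20 and 2 to 6 in the first 2 comparisons. The members' median log2 fold change ran -7.11 to -0.36, -0.51 to 1.96, -6.03 to -0.29 and -0.27 to 3.20 in the same order. The lowest counts of genes called came without high-fat water mouse 1 in the first 2 comparisons and without chow tea mouse 5 in the last, and the highest of the tea comparison (2036) and of the last (414) came without high-fat tea mouse 5 and high-fat tea mouse 3. Same-numbered mice deviated with correlations of -0.314 to 0.514, over 0.1 in 7 of 20 pairs. The labels do not say that the numbers pair mice, and these mixed correlations cannot decide it. Whether a call lost with the replicate block reflects a weaker effect was not tested. Counts of a few reads limit Svs and islet genes outside the top mice.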
